A study of Mus musculus with 17 samples.

Results

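Interferons signal to T cells through a short chain of proteins, and 9 of its genes were followed here in CD8 T cells sorted from mouse lung tumours: the receptor chains Ifngr1, Ifngr2, Ifnar1 and Ifnar2, the Janus kinases Jak1, Jak2 and Tyk2, and the inhibitors Socs1 and Socs3. The 9 genes were chosen by symbol as one signalling pathway, with earlier results on their levels in these same libraries in view, so that their differences between the 4 groups are given as description and no p-value is read from them. All 9 were among the 27240 symbols of the count table and among the 20137 that passed the filter on low counts. In both genotypes the mean levels of Ifngr1 and Ifngr2, the chains of the interferon gamma receptor, were lower in core-enriched than in rim-enriched tissue. KO and WT libraries overlapped for all 9 genes in core, and for 8 of 9 in rim, where Jak1 was lower in every KO library. Of all genes, 0.397% did not overlap between KO and WT in core and 13.7% in rim. Much of the Ifngr2 difference in WT mice came from 1 of the 2 WT rim libraries.

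RNA was sequenced from CD8 T cells of mice that lack PD-L1 in the endothelium, labelled KO, and of WT mice. The groups were KO core (6 libraries), WT core (5), KO rim (4) and WT rim (2), where core-enriched means macroscopic nodules and rim-enriched means parenchymal nodules. All 4 groups share the cell type and the tumour-bearing lung, and 1 WT core library is labelled as a pool. The sources used here do not state strain, sex, age, tumour model or what drives the deletion. Reads of 4 Y-linked genes summed to 449 and 503 CPM in KO core and KO rim F322, and to 511 and 480 in KO core and KO rim O. They summed to 103 CPM in the WT core pool and to at most 0.179 in all others, including both WT rim libraries. The genotypes were thus unbalanced for these reads, and a fit without these libraries is among the alternatives. The deletion was made in endothelial cells and not in the cells that were sequenced. Nothing in the labels says which libraries came from separate animals, so p-values measure effects against the spread between libraries, which may be partly technical.

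Interferon gamma binds a receptor of 2 chains, IFNGR1, which binds the ligand and carries JAK1, and IFNGR2, which carries JAK2. Type I interferons bind IFNAR1, which carries TYK2, and IFNAR2, which carries JAK1. The activated kinases phosphorylate STAT proteins, which enter the nucleus as GAF at GAS elements or, with IRF9, as ISGF3 at interferon-stimulated response elements (ISRE). SOCS1 and SOCS3 are induced by STATs and block cytokine receptors and their kinases, SOCS1 mainly interferon receptors and SOCS3 mainly receptors of the gp130 family. CD4 T cells of the type 1 lineage are known to lose IFNGR2 and with it much of their response to interferon gamma.

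Promoter sequences of the genes are shown because the inhibitors are themselves targets of the pathway. RefSeq promoters (GRCm38.p6, 250 bases before to 50 after a transcript start) were found for all 9 genes and searched on both strands for the GAS letters TTCNNNGAA and the ISRE letters (GAAA, any 2 bases, GAAA). Of 32851 mouse promoters of this length, 8.30% held the first and 3.44% the second. Both inhibitors held a match, in capitals: the Socs1 promoter (chr16:10785487-10785786, minus strand) an ISRE pair that overlaps by 4 bases and begins 83 bases before the start, and the Socs3 promoter (chr11:117969317-117969616, minus strand) a GAS 154 bases before the transcript start used. The Socs3 window lies wholly inside the span of the gene (117966079 to 117970336), so this start is internal and not the outer end of the gene.
Socs1: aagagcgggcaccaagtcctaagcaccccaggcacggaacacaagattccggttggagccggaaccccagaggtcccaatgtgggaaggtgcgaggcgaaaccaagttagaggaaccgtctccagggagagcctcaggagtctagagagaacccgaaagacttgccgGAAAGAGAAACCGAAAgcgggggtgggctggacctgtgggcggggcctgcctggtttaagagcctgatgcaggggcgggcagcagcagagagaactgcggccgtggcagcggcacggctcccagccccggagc
Socs3: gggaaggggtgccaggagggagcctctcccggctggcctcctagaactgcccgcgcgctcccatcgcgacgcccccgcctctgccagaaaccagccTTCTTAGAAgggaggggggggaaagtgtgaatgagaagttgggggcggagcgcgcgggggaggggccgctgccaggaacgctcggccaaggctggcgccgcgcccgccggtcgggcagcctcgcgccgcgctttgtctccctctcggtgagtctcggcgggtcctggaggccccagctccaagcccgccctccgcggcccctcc

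Among the receptors, GAS letters stood 5 bases before the transcript start used for Ifnar1 (window chr16:91485185-91485243, plus strand) and 214 bases before that of Ifnar2 (window chr16:91372544-91372602, plus strand), shown in capitals with 25 bases on each side. The Ifnar1 window lies inside the span of the gene, which begins at 91485032, so its start is not the outer end of the gene.
Ifnar1: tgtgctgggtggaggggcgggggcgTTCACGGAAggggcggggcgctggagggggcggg
Ifnar2: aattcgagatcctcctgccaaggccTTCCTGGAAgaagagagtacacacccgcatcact

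Ifngr1 and Ifngr2, the chains of the interferon gamma receptor, held neither motif in the windows chr10:19591699-19591998 and chr16:91546809-91547108 (both plus strand), and are printed to show this.
Ifngr1: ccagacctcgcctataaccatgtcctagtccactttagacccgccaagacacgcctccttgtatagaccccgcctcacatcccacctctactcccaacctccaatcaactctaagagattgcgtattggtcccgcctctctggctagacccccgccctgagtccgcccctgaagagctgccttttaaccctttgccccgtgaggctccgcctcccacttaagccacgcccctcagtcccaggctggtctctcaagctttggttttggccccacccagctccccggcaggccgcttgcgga
Ifngr2: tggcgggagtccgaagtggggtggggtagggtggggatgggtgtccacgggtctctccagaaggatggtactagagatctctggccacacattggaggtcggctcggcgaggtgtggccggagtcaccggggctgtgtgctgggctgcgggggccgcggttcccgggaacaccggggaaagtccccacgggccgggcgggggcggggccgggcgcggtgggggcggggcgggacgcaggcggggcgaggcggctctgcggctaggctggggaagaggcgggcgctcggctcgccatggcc

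A match to these letters is a description of the window and not evidence of binding. The windows of Jak1, Jak2 and Tyk2 held neither motif, and the starts used for Jak1 and Tyk2 also lay inside the span of the gene.

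Library totals ran from 21767045 to 32566456 counts, and levels are given as CPM, counts scaled to library size, with TMM factors that even out library composition. Markers of CD8 T cells (Cd8a, Cd8b1, Cd3d, Cd3e and Cd3g) were abundant in every library, their sum running over 3736 to 6397 CPM in KO core, 3235 to 7115 in WT core, 4989 to 5531 in KO rim and 4261 to 4544 in WT rim. Transcripts of other cells were present as well. The sum of 15 macrophage markers ran over 3699 to 7957 CPM in KO core, 4009 to 8183 in WT core, 2578 to 10399 in KO rim and 2252 to 4106 in WT rim, with Marco and Siglecf at 0 in at least 1 library. The sum of 8 B cell markers ran over 25.2 to 209 CPM in KO core, 112 to 473 in WT core, 85.1 to 486 in KO rim and 373 to 542 in WT rim, and that of 9 dendritic cell markers over 687 to 2600.1 CPM in KO core, 752 to 3116 in WT core, 1073 to 2177 in KO rim and 2211 to 3262 in WT rim. In sorted bulk RNA, fewer cells of a type and less RNA per cell cannot be told apart, and the part of other cells in the levels of the members was not tested. The 2 WT rim libraries stood apart from each other in 2 single markers, chosen after their values were seen. Ccr7, a homing receptor of naive and central memory T cells and of migrating dendritic cells, measured 3187 CPM in H874 and 830.4 in H877, and Siglech, a receptor of plasmacytoid dendritic cells, 13.4 CPM in H874 and 849 in H877. Ccr7 is on the list of dendritic cell markers and alone made up 3187 of their 3262 CPM in H874. The sum of that list therefore does not follow dendritic cells alone, and its top value in WT rim is almost all Ccr7.

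Scaled by exon length (union of GENCODE M21 exons, GRCm38), the mean over the 4 groups ordered the 9 genes from Ifngr1 at 575 CPM per kilobase through Jak1 at 228, Socs3 at 92.5, Ifnar2 at 44.8, Ifnar1 at 44.7, Tyk2 at 29.4, Ifngr2 at 24.8 and Jak2 at 13.6 to Socs1 at 1.79. Only the ends of this order, Ifngr1 above and Socs1 below, had library ranges that overlapped no other gene, and each neighbouring pair between them overlapped. The chains of the interferon gamma receptor were thus unequal on the scale of CPM per kilobase in every group, at 473 for Ifngr1 and 12.8 for Ifngr2 in KO core, 414 and 10.4 in WT core, 668 and 32.3 in KO rim, and 744 and 43.9 in WT rim. The ratio of the highest to the lowest library was 2.10 for Ifngr1, 9.96 for Ifngr2 and 17.7 for Socs1, and between 2.27 and 3.47 for the other 6.

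**Figure D1:**
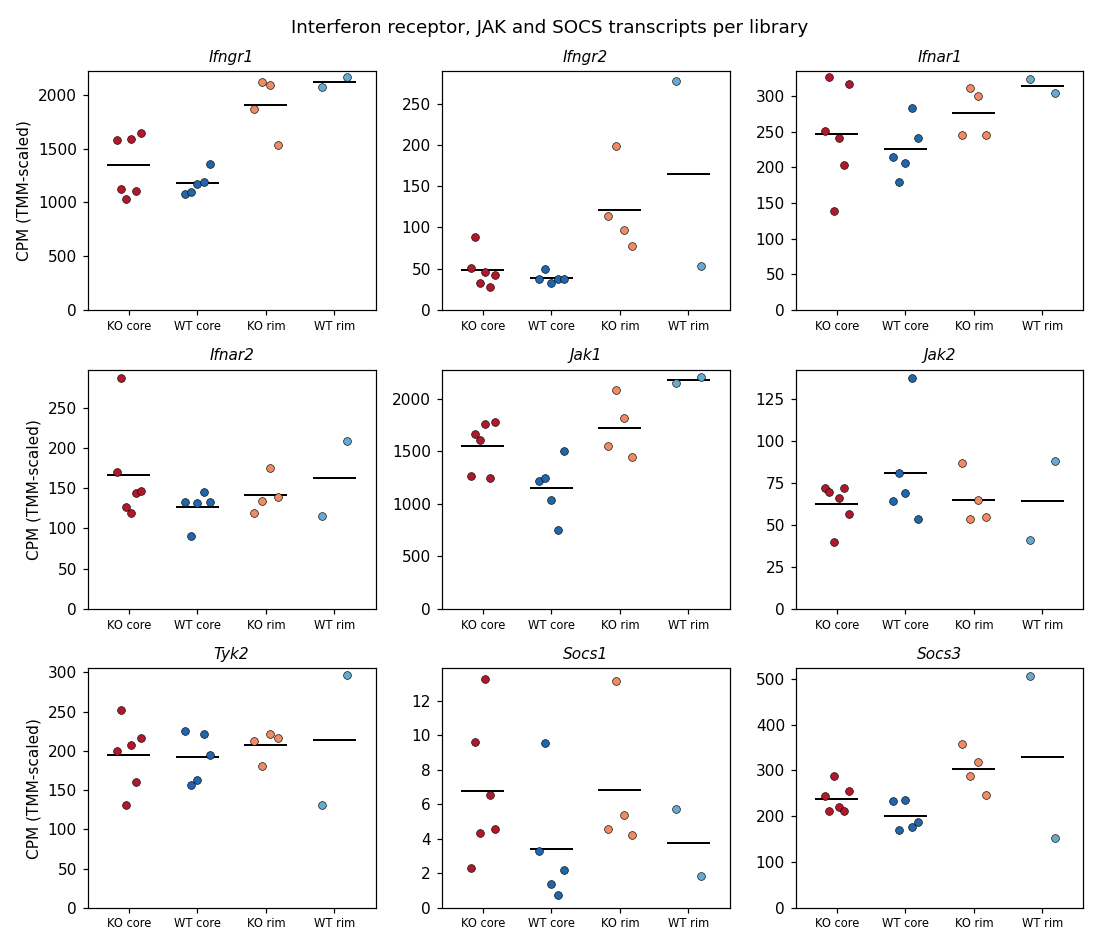
CPM (TMM-scaled, linear axis from 0) of the 9 genes in each of the 17 libraries, grouped as KO core (6), WT core (5), KO rim (4) and WT rim (2). Points are libraries and lines are group means. Ifngr1 lies between 1074 and 1361 CPM in WT core and at 2072 and 2165 CPM in WT rim, and the 2 WT rim points are far apart for Ifngr2, Ifnar2, Jak2, Tyk2 and Socs3.

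Ifngr1 (chromosome 10, 19591949 to 19610229, GRCm38), the ligand-binding chain of the interferon gamma receptor, was lower in core than in rim. In KO core it measured 1033 (lowest), 1351 (median) and 1645 (highest) CPM, and in KO rim 2115 in F322, 2087 in F86, 1870.4 in F15 and 1537 in O. The ranges of KO core and KO rim overlapped through KO rim O alone. In WT core it measured 1361 in the pool, 1191 in H876, 1168 in H873, 1096 in H719 and 1074 in F164, and in WT rim 2165 in H877 and 2072 in H874. WT core and WT rim did not overlap, as for 19.8% of all genes. The log2 fold change of core over rim was -0.50 (SE 0.14) in KO and -0.85 (SE 0.18) in WT mice, and that of KO over WT 0.19 (SE 0.14) in core and -0.16 (SE 0.19) in rim. The WT site difference was -0.88 (SE 0.23) without H874 and -0.80 (SE 0.23) without H877, so its size did not rest on either rim library. With either of them left out, WT rim has no spread of its own. The SEs of such fits, here and below, come from the spread of the other groups and say nothing about that between H874 and H877.

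Ifngr2 (chromosome 16, 91547059 to 91564007), the signalling chain that carries JAK2, had the largest site difference of the 9 genes in KO and in WT mice. In KO core it measured 27.8 (lowest), 44.1 (median) and 88.8 (highest) CPM, and in KO rim 199 in F322, 113 in F15, 96.8 in F86 and 77.7 in O. Only KO core F318, the highest of its group, reached into the range of KO rim. In WT core it measured 49.6 in H719, 37.9 in the pool, 37.7 in H876, 37.3 in F164 and 33.3 in H873, and in WT rim 277 in H874 and 53.2 in H877. H877 was close to the top of WT core, and H874 was the highest of all 17 libraries. The log2 fold change of core over rim was -1.34 (SE 0.38) in KO and -2.08 (SE 0.47) in WT mice, where it was -0.45 (SE 0.48) without H874 and -2.81 (SE 0.41) without H877. In KO mice it ran between -1.61 and -0.99 over all alternatives tried. KO over WT came to 0.30 (SE 0.36) in core and -0.44 (SE 0.51) in rim, a value that turned to 1.19 (SE 0.55) without H874 and was -1.17 (SE 0.46) without H877.

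Identifiers F322, F86 and O occur in both KO core and KO rim, which allows both sites to be set side by side within an identifier. Ifngr2 was lower in core for all 3, at 46.0 CPM in core and 199 in rim for F322, 27.8 in core and 96.8 in rim for F86, and 42.2 in core and 77.7 in rim for O. Ifngr1, Ifnar1, Ifnar2, Jak1 and Socs3 were lower in core for F322 and F86 and higher in core for O. Macrophage markers summed to 4208 CPM in KO core O and 10399 in KO rim O, the highest sum of all libraries, and their part in the levels of O was not tested. Jak2 and Socs1 were higher in core for all 3 by at most 0.30 on the log2 scale, and Tyk2 was lower in core for F86 alone, at -0.47.

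**Figure D2:**
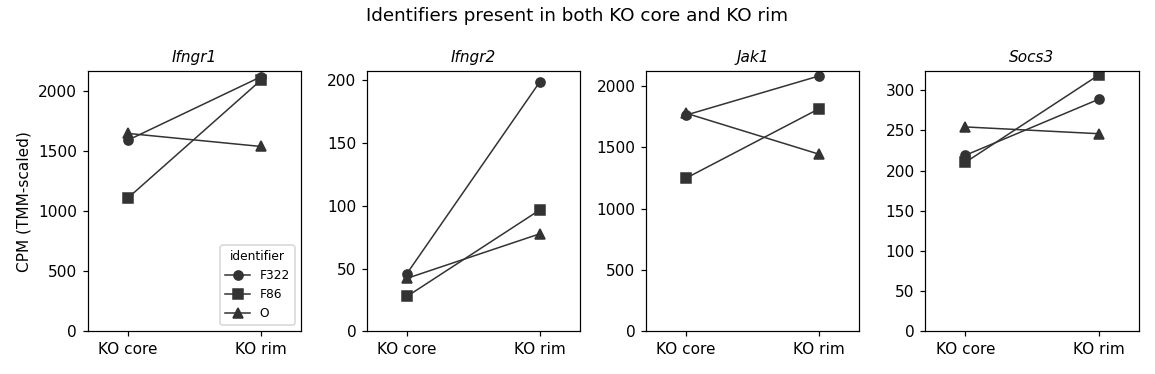
CPM (TMM-scaled, linear axis from 0) of Ifngr1, Ifngr2, Jak1 and Socs3 in KO core and KO rim for the identifiers F322, F86 and O, with 1 line per identifier. The Ifngr2 lines all run up to the rim, while O runs down for the other 3 genes.

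Ifnar1 (chromosome 16, 91485032 to 91510523) and Ifnar2 (chromosome 16, 91372783 to 91405589), the chains of the type I interferon receptor, lie beside Ifngr2 and Il10rb on chromosome 16. Ifnar1 averaged 247 ± 70.2 CPM (SD, n = 6) in KO core, 225 ± 39.3 CPM (n = 5) in WT core and 276 ± 35.4 CPM (n = 4) in KO rim. In WT rim it measured 324 in H874 and 305 in H877. WT core, at 180.3 to 284 CPM, did not overlap WT rim, as for 19.8% of all genes. The log2 fold change of core over rim was -0.16 (SE 0.19) in KO and -0.48 (SE 0.24) in WT, and that of KO over WT 0.13 (SE 0.18) in core and -0.19 (SE 0.26) in rim.

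Ifnar2 measured 119 (lowest), 145 (median) and 288 (highest) CPM in KO core, and 145 in H876, 133 in the pool, 132 in F164, 131 in H873 and 90.3 in H719 in WT core. In KO rim it measured 175 in F86, 139 in O, 134 in F322 and 119.8 in F15, and in WT rim 209 in H877 and 116 in H874. The groups overlapped in every comparison. Its log2 fold change of KO over WT was 0.39 (SE 0.22) in core, or 0.18 (SE 0.16) without KO core F318, and -0.20 (SE 0.31) in rim, or -0.56 (SE 0.35) without H874 and 0.31 (SE 0.38) without H877. Core over rim was 0.22 (SE 0.23) in KO and -0.36 (SE 0.30) in WT, where it was -0.73 (SE 0.34) without H874 and 0.14 (SE 0.36) without H877. The 2 libraries with the most Ifnar2 were among the 3 with the most Siglech: KO core F318 had 288 CPM of Ifnar2 and 1433 of Siglech, WT rim H877 209 and 849, while WT core H876 had 145 and 1174. The part of plasmacytoid dendritic cell RNA in Ifnar2 was not tested. Il10rb starts 567 bases after the end of Ifnar2, Gm36587 overlaps Ifnar2 and Raver2 overlaps Jak1, and the sources used here do not state whether counting used strand, so reads between these neighbours could be misassigned.

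Jak1 (chromosome 4, 101151974 to 101265282), the kinase shared by both interferon receptors and many cytokine receptors, measured 1248 (lowest), 1636 (median) and 1776 (highest) CPM in KO core and 1506 in the pool, 1246 in H719, 1218 in F164, 1033 in H873 and 749 in H876 in WT core. KO core lay above WT core on average and the groups overlapped, with a log2 fold change of KO over WT of 0.43 (SE 0.16). Without H876, the lowest library, this value was 0.30 (SE 0.14). In KO rim it measured 2080.3 in F322, 1814 in F86, 1549.9 in F15 and 1442 in O, and in WT rim 2205 in H877 and 2149 in H874. All 4 KO rim libraries lay below both WT rim libraries (log2 fold change -0.34, SE 0.22), and 13.7% of all genes did not overlap between these groups. Core over rim was -0.15 (SE 0.17) in KO and -0.92 (SE 0.21) in WT, and the difference of the site effect, KO minus WT, was 0.77 (SE 0.27), the largest of the 9 genes beside its error. Without H876 the WT site value was -0.79 (SE 0.18) and the difference of the site effect 0.65 (SE 0.23).

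Jak2 (chromosome 19, 29251803 to 29313095), the kinase of IFNGR2, averaged 62.7 ± 12.7 CPM (SD, n = 6) in KO core, 81.0 ± 33.1 CPM (n = 5) in WT core, 65.1 ± 15.3 CPM (n = 4) in KO rim, and in WT rim 88.0 in H877 and 41.1 in H874. WT core H876, at 138 CPM, was the highest of all libraries. KO over WT came to -0.37 (SE 0.25) in core and 0.013 (SE 0.36) in rim, and without H876 the core value was -0.11 (SE 0.22). Core over rim was -0.055 (SE 0.27) in KO and 0.33 (SE 0.35) in WT. Without H874 the WT site value was -0.12 (SE 0.41) and the rim genotype value -0.44 (SE 0.41), and without H877 they were 1.0 (SE 0.44) and 0.68 (SE 0.44).

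Tyk2 (chromosome 9, 21104068 to 21131393), the kinase of IFNAR1, had means closer to each other than those of the other 8 genes, at 194 ± 42.9 CPM (SD, n = 6) in KO core, 192 ± 32.2 CPM (n = 5) in WT core and 208 ± 18.5 CPM (n = 4) in KO rim, with 297 in H877 and 131 in H874 in WT rim. Both WT rim libraries lay at the ends of its range over all 17. The fit gave KO over WT as 0.014 (SE 0.19) in core and -0.042 (SE 0.28) in rim, and core over rim was -0.096 (SE 0.21) in KO and -0.15 (SE 0.26) in WT, all smaller than their standard errors. Leaving out 1 WT rim library moved the rim value to -0.52 (SE 0.27) without H874 or 0.68 (SE 0.29) without H877, and the WT site value to -0.63 (SE 0.26) or 0.57 (SE 0.29).

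Socs1 (chromosome 16, 10783808 to 10785536), the inhibitor of JAK1, JAK2 and TYK2, was the scarcest of the 9 genes, with 21 to 310 counts per library. It measured 2.33 (lowest), 5.56 (median) and 13.2 (highest) CPM in KO core and 9.52 in H719, 3.28 in F164, 2.16 in the pool, 1.37 in H873 and 0.750 in H876 in WT core. In KO rim it measured 13.1 in F322, 5.37 in F86, 4.59 in F15 and 4.23 in O, and in WT rim 5.70 in H874 and 1.83 in H877. All groups overlapped, with 6.77 ± 4.01 CPM (SD, n = 6) in KO core, 3.42 ± 3.54 CPM (n = 5) in WT core and 6.83 ± 4.22 CPM (n = 4) in KO rim. KO over WT stood at 0.99 (SE 0.62) in core and 0.86 (SE 0.90) in rim, and core over rim was -0.013 (SE 0.65) in KO and -0.14 (SE 0.84) in WT. Without H874 the WT site value was 0.89 (SE 1.16) and the rim genotype value 1.89 (SE 1.26), and without H877 they were -0.73 (SE 1.01) and 0.28 (SE 1.11).

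Socs3 (chromosome 11, 117966079 to 117970336), the inhibitor of gp130-family receptors, was an abundant transcript. It measured 210.4 (lowest), 232 (median) and 288 (highest) CPM in KO core and 235 in H873, 232 in F164, 188 in the pool, 176 in H876 and 170.5 in H719 in WT core. In KO rim it measured 358 in F15, 318.8 in F86, 289 in F322 and 246 in O, and in WT rim 505 in H874 and 153 in H877. The 2 WT rim libraries were the highest and the lowest of all 17. Core over rim was -0.35 (SE 0.23) in KO and -0.72 (SE 0.29) in WT, where it was 0.39 (SE 0.23) without H874 and -1.32 (SE 0.21) without H877. KO over WT amounted to 0.25 (SE 0.22) in core and -0.12 (SE 0.31) in rim, where it was 0.98 (SE 0.25) without H874 and -0.72 (SE 0.22) without H877. The SEs without H874 or H877 hold none of the spread between these libraries, so such values are not to be weighed against them.

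H874 combined the most Ifngr2 (277 CPM) and Socs3 (505) with the most Ccr7 of all libraries, and KO rim F322 was second for Ifngr2 and Ccr7 (199 and 2089 CPM). The part of the mix of T cell states in these levels was not tested.

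**Figure D3:**
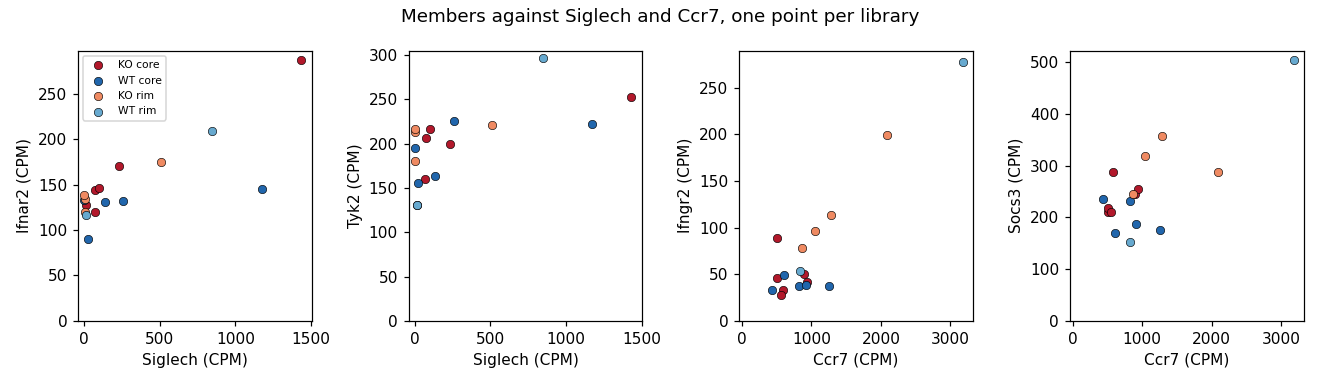
CPM of Ifnar2 and Tyk2 against Siglech, and of Ifngr2 and Socs3 against Ccr7, with 1 point per library coloured by group (linear axes). KO core F318 and WT rim H877 are high in both Siglech and Ifnar2, and WT rim H874 is the highest point for Ccr7, Ifngr2 and Socs3.

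Fold changes were fitted with edgeR's quasi-likelihood model over all 20137 genes, where a gene was called at a Benjamini-Hochberg adjusted p under 0.05. Of the 9 members, 0 were called for KO against WT in core, where 0% of all genes were called, 0 for KO against WT in rim (0% of all genes), 0 for core against rim in KO (0%) and 0 for the difference of the site effect (0%). In those 4 comparisons 1244, 1480, 1600 and 1547 of all genes had an unadjusted p under 0.05, and DESeq2 called 9, 268, 35 and 161 genes. For core against rim in WT, 3 members were called, all lower in core (Ifngr1, Ifngr2 and Jak1), where 3.86% of all genes were called. Nothing is read from these counts, since the members were chosen with the same contrasts in view. The count of 3 was 0 without WT rim H874, 1 without WT core H873 (Ifngr1), 2 by limma voom and 2 without F322, O and the pool (both Ifngr1 and Jak1). Without WT rim H877 it was 2, Ifngr2 and Socs3, so that Ifngr1 and Jak1 lost their calls.

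Groups whose CPM ranges did not overlap were found for 0 of 9 members between KO core and WT core, against 0.397% of all genes, and for 1 of 9 (Jak1) between KO rim and WT rim, against 13.7%. Between core and rim they were found for 0 of 9 in KO, against 1.6% of all genes, and for 4 of 9 (Ifngr1, Ifngr2, Ifnar1 and Jak1) in WT, against 19.8%. The median log2 fold change of the 9 members was 0.25 for KO against WT in core and -0.16 in rim, and -0.15 for core against rim in KO and -0.48 in WT. The same medians over all genes were -0.01, 0.011, 0.029 and 0.033. For KO against WT, 8 of 9 members were positive in core and 2 of 9 in rim, while 1 of 9 was positive for core against rim in each genotype.

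**Figure D4:**
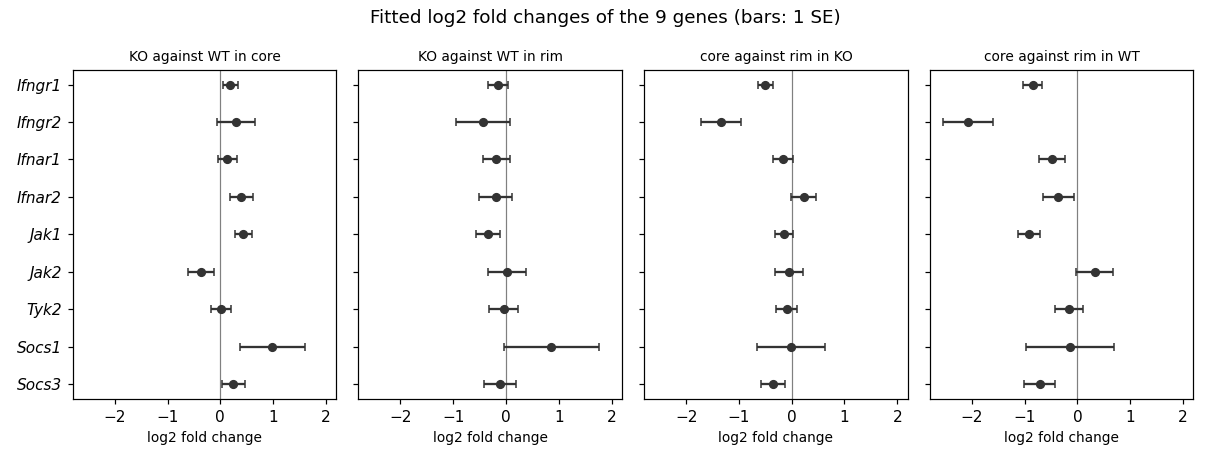
Fitted log2 fold changes of the 9 genes (points) with 1 standard error on each side (bars) for KO against WT in core and in rim and for core against rim in KO and in WT. Ifngr1 and Ifngr2 lie left of 0 in both site panels, 8 of 9 genes lie right of 0 for KO against WT in core and 7 of 9 left of it in rim, and the bars are widest for Socs1.

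Comparisons that share a group are not independent: core against rim in WT and KO against WT in rim both use H874 and H877. The difference of the site effect, KO minus WT, was 0.35 (SE 0.23) for Ifngr1, 0.74 (SE 0.62) for Ifngr2, 0.32 (SE 0.31) for Ifnar1, 0.59 (SE 0.38) for Ifnar2, -0.38 (SE 0.44) for Jak2, 0.057 (SE 0.34) for Tyk2, 0.13 (SE 1.06) for Socs1 and 0.37 (SE 0.37) for Socs3. Leaving out 1 WT rim library turned the sign of several of these. The value was -0.90 (SE 0.59) without H874 and 1.46 (SE 0.54) without H877 for Ifngr2, -0.74 (SE 0.27) and 0.97 (SE 0.25) for Socs3, 0.53 (SE 0.31) and -0.67 (SE 0.33) for Tyk2, 0.062 (SE 0.47) and -1.06 (SE 0.50) for Jak2, 0.94 (SE 0.40) and 0.079 (SE 0.42) for Ifnar2, and -0.91 (SE 1.31) and 0.71 (SE 1.21) for Socs1. For Jak1 it was 0.79 (SE 0.32) and 0.74 (SE 0.32). These SEs, too, hold none of the spread between H874 and H877.

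Other genes of the pathway were followed on 6 lists that hold no member. By edgeR, genes were called for core against rim in WT alone, where 9 of the 89 genes tested on the 6 lists passed, beside 3.86% of all genes. The count was 0 of 89 in each of the other 4 comparisons. There 5, 10, 6 and 7 of the 89 had an unadjusted p under 0.05 for KO against WT in core, in rim, for core against rim in KO and for the difference of the site effect, and DESeq2 called 0, 3, 0 and 3. Among STATs and IRFs, 2 of 16 passed, both lower in core. Irf1, a transcription factor induced by interferon gamma, averaged 389 ± 116 CPM (SD, n = 5) in WT core and 789 ± 206 (n = 2) in WT rim (log2 fold change -1.02, SE 0.26, edgeR adjusted p = 0.0371). Irf9, the DNA-binding part of ISGF3, averaged 125 ± 21.2 CPM in WT core and 197 ± 23.1 in WT rim (-0.66, SE 0.17, edgeR adjusted p = 0.0360). The groups did not overlap for either gene, as for 19.8% of all genes.

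Genes of the 2 target lists that passed were higher in WT core. Of 18 interferon gamma targets 3 passed. They were Serpina3g, a serine protease inhibitor of activated T cells, at 383 ± 153 CPM (SD, n = 5) in WT core and 68.5 ± 29.8 (n = 2) in WT rim (2.48, SE 0.44, edgeR adjusted p = 0.00770), and the immunoproteasome subunits Psmb9 (0.56, SE 0.14, edgeR adjusted p = 0.0362) and Psmb8 (0.52, SE 0.14, edgeR adjusted p = 0.0434). The list had a median log2 fold change of 0.48, with 13 of 18 positive. Of 18 type I targets 1 passed, Isg20, an RNA exonuclease, at 35.3 ± 11.1 CPM in WT core and 10.7 ± 1.51 in WT rim (1.72, SE 0.31, edgeR adjusted p = 0.00893), and the list median was -0.021. Oasl2 came next at 1.61 (SE 0.49) with an edgeR adjusted p of 0.0789.

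Other negative regulators divided. Cish, the SOCS-family gene induced by interleukin 2 and T cell receptor signals, was higher in WT core, at 110.4 ± 34.2 CPM (SD, n = 5), than in WT rim, at 40.2 ± 11.3 (n = 2; 1.46, SE 0.28, edgeR adjusted p = 0.0111). Socs4, a SOCS gene less studied in T cells, was lower in WT core (-0.89, SE 0.24, edgeR adjusted p = 0.0493), as was Trim21, a ubiquitin ligase that binds antibodies inside the cell (-0.68, SE 0.18, edgeR adjusted p = 0.0426). The other 15 of the 18 did not pass. Receptors that share these kinases gave 0 of 15, with the largest differences in Il6st, which encodes gp130 (-1.16, SE 0.40, edgeR adjusted p = 0.124), and Il6ra (-0.98, SE 0.68, adjusted p = 0.478). Both came from H874, at 462 CPM of Il6st and 18.1 of Il6ra. H877, at 104 and 5.02 CPM, lay inside the range of WT core (82.9 to 176 and 2.63 to 12.9). Of interferons and other receptor chains 0 of 4 passed, with Ifng at 1.23 (SE 0.46) and Il10rb at 0.15 (SE 0.22), and 9 more of the 13 listed were not tested. None of the 9 calls held by edgeR without H874. Over 13 alternatives, Socs4 and Trim21 lost their call in 10, Psmb8, Psmb9 and Irf9 in 7, Irf1 in 6, Isg20 in 3, and Cish and Serpina3g in 1, that without H874. The losses included leaving out single WT core libraries, and for Socs4, Trim21 and Psmb9 also no filter and limma voom, which with the identifier as block called 6 of the 89 genes. Of macrophage markers, 15 of 15 were positive for WT core over WT rim, and the complement genes C1qb and C1qc passed the test (C1qb 3.45, SE 0.85, edgeR adjusted p = 0.0328). With medians on the log2 fold change scale, fibroblast markers were positive in 7 of 7 (median 1.70), epithelial in 9 of 11 (median 2.0) and neutrophil in 6 of 6 (median 1.18), and B cell markers were negative in 8 of 8 (median -1.02). Fibroblast markers summed to only 9.73 to 39.5 CPM in WT core and 3.71 to 4.60 in WT rim, so their fold changes lie near the floor. Epithelial markers summed to 116 to 646 CPM in WT core and 45.2 to 167 in WT rim. The list of CD4 T cell markers was divided, with 4 of 6 positive and 2 negative (median 1.41). Of these Il2ra passed at 2.10 (SE 0.48) with an edgeR adjusted p of 0.0240. Cd4 itself averaged 41.1 CPM in WT core and measured 4.77 in WT rim H874 and 107 in H877. The libraries with the most Cd4 were also those with the most Siglech. They were KO core F318 (140 CPM of Cd4), WT rim H877, WT core H876 (94.7) and KO rim F86 (60.9), so Cd4 need not follow CD4 T cells alone. The part of any of these other cells in the levels was not tested.

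**Figure D5:**
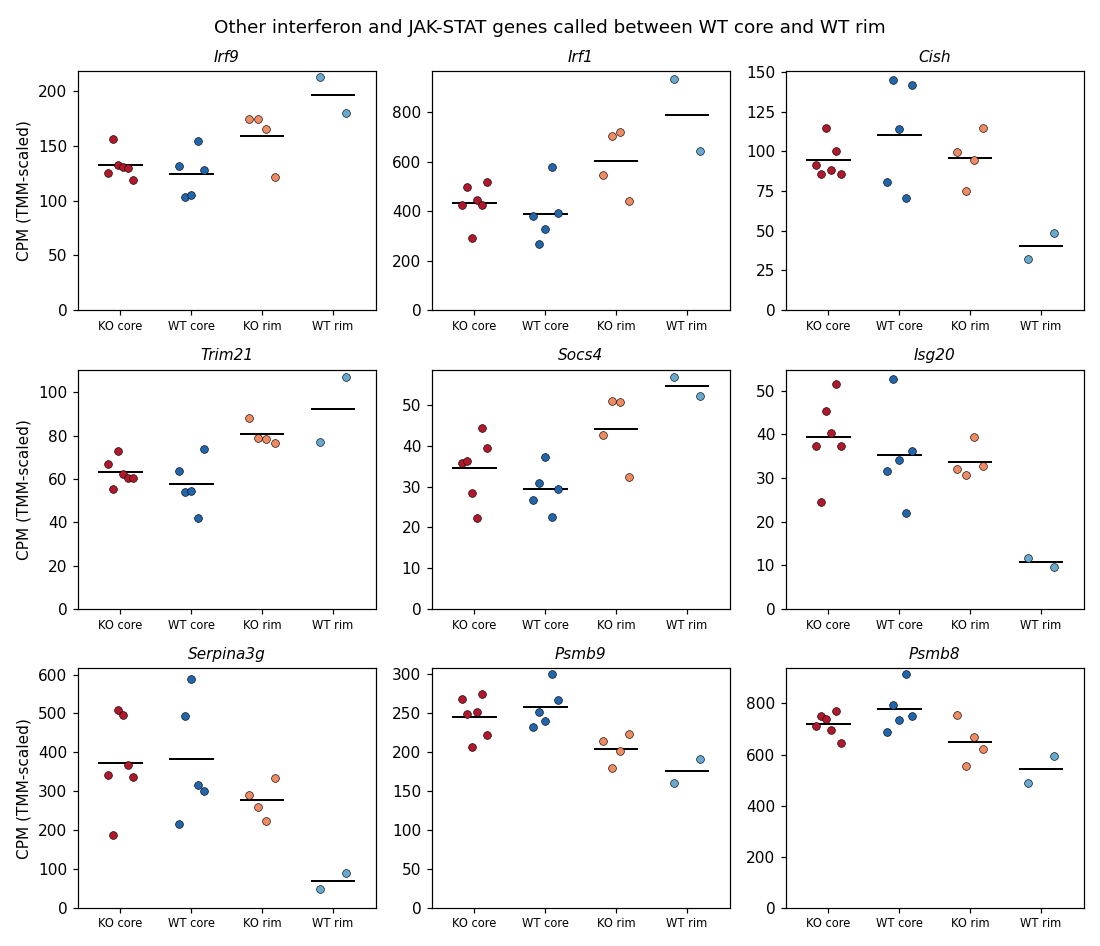
CPM (TMM-scaled, linear axis from 0) per library of the 9 other pathway genes called between WT core and WT rim, with all 4 groups shown. Points are libraries and lines are group means. Irf9, Irf1, Trim21 and Socs4 lie lower, and Cish, Isg20, Serpina3g, Psmb9 and Psmb8 higher, in WT core than in WT rim.

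Within KO mice the same lists showed no call between core and rim by edgeR. The 2 largest differences of each list were in Irf8 (1.0, SE 0.84) and Irf5 (0.52, SE 0.49), Lifr (1.11, SE 1.34) and Csf2rb (0.95, SE 0.81), Socs2 (0.73, SE 0.58) and Ptpn6 (0.45, SE 0.26), Cxcl9 (0.69, SE 0.88) and Iigp1 (0.63, SE 0.45), and Ifi44 (0.52, SE 0.82) and Rtp4 (-0.49, SE 0.23). Ifng, the ligand of the receptor followed here, was at -0.084 (SE 0.33) and Il10rb at -0.011 (SE 0.17). Lifr and Csf2rb, cytokine receptor chains, and Irf8, a transcription factor of dendritic cells, had SDs near or above their means in KO core. Outside the rule of 2 genes per list and named after its values were seen, Il4ra, a chain of the interleukin 4 receptor, averaged 304 ± 67.7 CPM in KO core (SD, n = 6), against 511 ± 66.8 CPM in KO rim (n = 4), and the groups did not overlap, as for 1.6% of all genes (-0.75, SE 0.22, edgeR adjusted p = 0.620).

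For KO against WT in rim, Isg20 averaged 33.7 ± 3.84 CPM (SD, n = 4) in KO and 10.7 ± 1.51 (n = 2) in WT (1.66, SE 0.32, edgeR adjusted p = 0.107), Serpina3g 277 ± 46.9 CPM in KO and 68.5 ± 29.8 in WT (2.02, SE 0.43, adjusted p = 0.193) and Cish 96.1 ± 16.3 CPM in KO and 40.2 ± 11.3 in WT (1.26, SE 0.28, adjusted p = 0.227). None passed edgeR's test, although DESeq2 called all 3 and their groups did not overlap, as for 13.7% of all genes. The rest of the 2 largest values of each list were in Ifng (1.09, SE 0.46), Il10rb (0.48, SE 0.23), Jak3, the partner of JAK1 on receptors with the common gamma chain (0.79, SE 0.28), Lifr (-1.29, SE 1.68), Irf8 (-0.87, SE 1.07), Irf5 (-0.54, SE 0.64), the phosphatase gene Ptpn11 (1.11, SE 0.48), Oas2 (1.31, SE 1.04) and Iigp1 (0.91, SE 0.61). For KO over WT in rim, macrophage markers were positive in 15 of 15 (median 1.68), epithelial in 11 of 11 (median 1.61) and fibroblast in 6 of 7 (median 2.57), while dendritic cell markers were negative in 9 of 9 (median -0.84) and B cell markers in 8 of 8 (median -0.58). Single libraries weighed on these tallies. Fibroblast markers summed to 82.2 CPM in KO rim F15, but 13.9 in O, 12.4 in F322 and 8.52 in F86. Epithelial markers summed to 817 CPM in KO rim O, but 182 in F86, 132 in F15 and 66.2 in F322. WT rim H874 and H877 had 4.60 and 3.71 CPM of fibroblast markers, and 45.2 and 167 of epithelial markers. Macrophage markers summed to 10399 CPM in KO rim O and 6215 in F15, but 2591 in F322 and 2578 in F86, beside 2252 in WT rim H874 and 4106 in H877. Of these sums, Ctsd alone was 2484 CPM in O, 1895 in F15, 1415 in F322, 1885 in F86, 1052 in H874 and 2153 in H877. Siglech and Flt3 measured 849 and 121 CPM in H877 but 13.4 and 2.39 in H874, while Ccr7 measured 830 in H877 and 3187 in H874. The part of these cells in the fold changes was not tested.

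For KO against WT in core, the type I targets Cmpk2, a mitochondrial nucleotide kinase, and Ifit1, which binds viral RNA, had the largest values of their list. Cmpk2 averaged 30.5 ± 6.92 CPM (SD, n = 6) in KO and 15 ± 8.29 (n = 5) in WT (1.03, SE 0.34, edgeR adjusted p = 0.796). Ifit1 averaged 45.2 ± 15.7 CPM in KO and 27.3 ± 9.19 in WT (0.73, SE 0.29, adjusted p = 0.796), and neither passed. For KO over WT in core, B cell markers were negative in 8 of 8 (median -1.25), neutrophil in 6 of 6 (median -0.98) and macrophage in 14 of 15 (median -0.39), and their part in these values was not tested. Values for other genes under the naming rule were 0.32 (SE 0.16) for Il10rb, -0.23 (SE 0.31) for Ifng, 0.65 (SE 0.52) for Il6ra, 0.50 (SE 1.22) for Lifr, -0.32 (SE 0.46) for Irf5, -0.87 (SE 0.53) for Socs5, -0.77 (SE 0.32) for Sh2b3, -0.72 (SE 0.63) for Ciita and 0.62 (SE 0.42) for Iigp1. For the difference of the site effect, Cish (-1.48, SE 0.33, edgeR adjusted p = 0.250), Isg20 (-1.50, SE 0.37, adjusted p = 0.325) and Serpina3g (-2.05, SE 0.50, adjusted p = 0.310) came nearest to the threshold and did not pass, although DESeq2 called them, while Ifng stood at -1.32 (SE 0.55) and Ptpn11 at -1.03 (SE 0.56). Other named genes of that comparison were Il10rb at -0.16 (SE 0.28), Lifr at 1.79 (SE 2.08), Jak3 at -0.68 (SE 0.33), Irf8 at 1.06 (SE 1.32), Oas2 at -1.36 (SE 1.23) and Cxcl9 at -1.06 (SE 1.44).

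The genes whose log2 CPM followed each member most closely over the 17 libraries were sought among 9914 others with a mean of at least 5 CPM. These correlations (Pearson's r and Spearman's rho, with a trimmed r that leaves out the 2 libraries farthest from the member's median) are descriptions over libraries that share identifiers, depth and cell mix. The nearest genes were Zfp33b (r 0.95, rho 0.91, trimmed r 0.96), Arid5a (r 0.94, rho 0.92, trimmed r 0.94) and Rnf138 (r 0.92, rho 0.86, trimmed r 0.93) for Ifngr1, and Cdkn2aip (r 0.89, rho 0.83, trimmed r 0.75), Hbp1 (r 0.88, rho 0.83, trimmed r 0.78) and Samd8 (r 0.88, rho 0.83, trimmed r 0.75) for Ifngr2. For Ifnar1 they included Spty2d1 (r 0.89, rho 0.81, trimmed r 0.78) and Dnajb9 (r 0.88, rho 0.81, trimmed r 0.78), and for Ifnar2 Cpne7 (r 0.88, rho 0.73, trimmed r 0.67), Fgfr1op2 (r 0.88, rho 0.76, trimmed r 0.77) and Stat2 (r 0.86, rho 0.72, trimmed r 0.80). Stat2, which encodes a part of ISGF3, is on the list of STATs and IRFs.

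For the kinases, the nearest genes included Atp11b (r 0.95, rho 0.93, trimmed r 0.92), Atp1b3 (r 0.93, rho 0.93, trimmed r 0.85) and Tgfbr2 (r 0.91, rho 0.86, trimmed r 0.82) for Jak1, Lsp1 (r 0.82, rho 0.69, trimmed r 0.67) and Lmnb1 (r 0.82, rho 0.75, trimmed r 0.74) for Jak2 and Ldlrad3 (r 0.89, rho 0.88, trimmed r 0.82), Ptpre (r 0.87, rho 0.92, trimmed r 0.92) and Lmf1 (r 0.87, rho 0.85, trimmed r 0.85) for Tyk2. Tgfbr2 encodes a receptor for TGF-beta. For the inhibitors they were Rp9 (r 0.94, rho 0.92, trimmed r 0.91), Prpf38b (r 0.91, rho 0.91, trimmed r 0.85) and Clasrp (r 0.91, rho 0.91, trimmed r 0.83) for Socs1 and LOC115487884 (r 0.88, rho 0.90, trimmed r 0.79), Trim13 (r 0.84, rho 0.82, trimmed r 0.75) and Aqp3 (r 0.82, rho 0.82, trimmed r 0.73) for Socs3. Among the members themselves, Ifngr1 and Ifngr2 had an r of 0.70 (rho 0.73), Ifngr1 and Jak1 0.69 (rho 0.74), Ifngr2 and Socs3 0.68 (rho 0.48), Jak1 and Jak2 -0.57 (rho -0.34), and Socs3 and Jak2 -0.57 (rho -0.53).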

How the data were processed

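RNA of sorted CD8 T cells was prepared with the RNeasy Micro and TruSeq RNA kits, per the labels' protocols. The values the authors deposited are raw counts, 1 row for each gene symbol. Per the submitters' processing notes, the tools were featureCounts, Subread 2.0.0, HISAT2, Bowtie2 2.4.5 and cutadapt 3.2 with the builds GRCm38 and mm10, and no order or setting is given. All 17 columns matched 1 labelled sample each. Totals ran from 21767045 to 32566456 counts.

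Counts were analysed with edgeR 4.0.16 in R 4.3.3 (filterByExpr, TMM, robust quasi-likelihood fit of 4 group means to all 17 libraries, so that WT rim shared the spread of the others). Two-sided F tests were adjusted by Benjamini-Hochberg over 20137 genes at 0.05. The standard error (SE) is the log2 fold change divided by the square root of F. Log2 CPM used a prior count of 2. The fit was tested on simulated data. Positions are from RefSeq GRCm38.p6. Members and gene lists were chosen with earlier results of these data known. Named besides the members were the called genes of the 6 lists (at most 6 per list and comparison), for lists with fewer than 2 calls also the 2 genes with the largest difference at a mean of at least 5 CPM, and the 3 genes most like each member, of which a few are not reported here. Ccr7, Siglech, C1qb, C1qc, Il2ra and Il4ra were named after their values were seen. Alternatives were RLE size factors, DESeq2 1.42.0, no filter, limma 3.58.1 voom with the identifier as block, leaving out each library, and leaving out F322, O and the pool, the 5 libraries with reads of Y-linked genes (at least 103 CPM over 4 genes, against at most 0.179 in the others). Voom with no block was added after seeing the data.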

Additional observations from a re-analysis of the deposited data

Results flagged for a closer look

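Of 27 groups of 4 to 6 libraries tested over the 9 members, 6 held a library that Dixon's test flagged. Its gap to the nearest neighbour, divided by the range of the group, exceeded Dixon's 95% value. For independent and normal values, chance flags about 5% of groups. These values are linear CPM and the groups share libraries, so no excess is read from the count of 6. KO core F318 was the highest of its group for Ifngr2, at 88.8 CPM with the next at 50.6, and for Ifnar2, at 288 CPM with the next at 170.5. WT core H719 was the highest for Ifngr2, at 49.6 CPM with the next at 37.9, the highest for Socs1, at 9.52 CPM with the next at 3.28, and the lowest for Ifnar2, at 90.3 CPM with the next at 131. KO rim F322 was the highest for Socs1, at 13.1 CPM with the next at 5.37. KO core F318 also had the most Siglech of all libraries, 1433 CPM.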

How the results depend on the processing

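WT rim has 2 libraries, and both WT rim comparisons turn on them. Where either is left out, SEs and calls rest on the spread of the other groups alone. Of 738 refitted values over 45 member results, 694 kept their call and, where uncalled, lay within 1 SE, 10 lost a call, 1 gained one, 33 uncalled values moved by more than 1 SE, and 0 of the called values reversed. The gain was Socs3 between WT core and WT rim without H877. The count of members called there ran from 0 to 3 when 1 library was left out. DESeq2 called 9 genes for KO against WT in core, 268 in rim, 35 for core against rim in KO, 1907 in WT and 161 for the difference of the site effect. Without a filter the rim count was 2 and that of the difference 4. Leaving out 1 library gave 0 to 26 genes for KO against WT in rim, 68 to 795 for core against rim in WT and 0 to 14 for the difference of the site effect. Without F322, O and the pool, core against rim in WT gave 313. The causes were not tested.

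With the identifier as replicate block, limma voom called 9 genes for KO against WT in rim and 2 for core against rim in KO. Voom with no block called 9 in rim and 0 between sites in KO. Same-identifier libraries deviated together with r of 0.0818 for O, 0.0449 for F86 and 0.0721 for F322, below 0.1, and the labels do not say that an identifier marks an animal. Each core library correlated best with the rim library of its own identifier, but only F322 did so from the rim side. With F322, F86 and O as a fixed replicate block the KO site difference was -0.42 (SE 0.21) for Ifngr1 and -1.61 (SE 0.27) for Ifngr2, with 0 genes called. Among the members depth limits Socs1 most, at 21 counts in its lowest library.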

Other observations

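Irf8, a transcription factor of dendritic cells, was highest in 1 library of each group. It measured 2079.5 CPM in KO core F318, 1315 in WT core H876, 779 in KO rim F86 and 1068 in WT rim H877, the 4 libraries with the most Siglech (1433, 1174, 509 and 849 CPM). In the other 13 libraries Irf8 was at most 556 CPM and Siglech at most 257 CPM. Both genes were singled out after their values were seen.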
